A study of Homo sapiens with 3 samples.

Results

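The aminoacyl-tRNA synthetases are 36 genes of the 62754 listed in the RNA-seq table, taken by gene symbol, of which 20 encode enzymes of the cytosol and 16 encode enzymes of mitochondria. The set includes GARS1 and KARS1, whose products serve both compartments and which were counted here with the cytosolic enzymes. The samples were 3 replicates of MCF10A, a human breast epithelial cell line that is not tumorigenic, carrying a retroviral Tet-One vector with no inserted gene and selected with puromycin. They received no treatment and no doxycycline, and all belonged to batch 1, so the data describe levels in 1 condition and hold no contrast between conditions. Whether the replicates were separate cultures is not given in the sources used here, so the spread between them may be technical.

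Each aminoacyl-tRNA synthetase joins an amino acid to its matching tRNA, using ATP, and so sets which amino acid is read at each codon. Mitochondria translate a small set of respiratory chain proteins with their own tRNAs, and for most amino acids a separate nuclear gene encodes the mitochondrial enzyme. Several cytosolic enzymes are held with scaffold proteins in a multisynthetase complex, and the enzymes fall into class I and class II by the fold of the catalytic domain. In amino acid shortage the transcription factor ATF4 raises many of the cytosolic enzymes through a composite element in the promoters of its targets.

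The letters of that composite element, TGATGNAA, were searched on both strands of RefSeq promoters on GRCh38.p14, from 250 bases before to 50 bases after each annotated start. They were present in 8 of the 30 enzymes with a promoter entry (26.7%), against 1217 of 27305 genes (4.46%) and 571 of 15843 protein-coding genes (3.60%). By compartment, 7 of 16 cytosolic enzymes (43.8%) and 1 of 14 mitochondrial enzymes (7.14%) held them. The 30 bases around each match are shown because these letters were more frequent in the enzymes' promoters than over all genes, with the match in capitals and each line 5′ to 3′ on the strand of the gene:
TARS1, chr5:33440956-33440985, plus strand: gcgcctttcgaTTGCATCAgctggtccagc
MARS1, chr12:57488053-57488082, plus strand: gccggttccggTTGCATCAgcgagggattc
GARS1, chr7:30594834-30594863, plus strand: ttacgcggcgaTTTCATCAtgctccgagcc
IARS1, chr9:92293692-92293721, minus strand: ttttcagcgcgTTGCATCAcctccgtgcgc
CARS1, chr11:3057407-3057436, minus strand: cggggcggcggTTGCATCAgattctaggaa
AARS1, chr16:70289675-70289704, minus strand: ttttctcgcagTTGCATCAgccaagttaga
NARS1, chr18:57621804-57621833, minus strand: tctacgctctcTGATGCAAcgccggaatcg
YARS2, chr12:32756076-32756105, minus strand: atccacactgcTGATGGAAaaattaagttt

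Read in the orientation TTNCATCA, the variable base was G in 6 of the 8 matches, and GARS1 and YARS2 held the other letters. In 6 genes the match lay within 35 bases of the RefSeq start, and in AARS1 and YARS2 it lay farther upstream. A match is a description of letters and not a site that was shown to be used. AARS2, LARS1, TARS3, VARS1, VARS2 and YARS1 have no promoter entry.

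The labelled cell type was first set beside its markers. The basal keratins KRT5, KRT14 and KRT17 had means of 6612, 4144 and 2669 TPM, and CDH1 and EPCAM had 29.1 and 14.6 TPM. CD3E had no read, COL3A1 had 2 reads in all and PTPRC stood at 0.0728 TPM, while the endothelial marker PECAM1 was at 1.77 TPM. TPM (transcript abundance) divides reads by gene length and scales each replicate to 1000000. The table corresponds to 15273329, 15446347 and 11166546 reads in replicates 1, 2 and 3, a number that rests on the smallest step in the values being 1 read.

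Nearly the whole set was expressed. The mean was at or above 1 TPM in 35 of 36 enzymes, against 24.9% of all genes and 56.7% of protein-coding genes in the same table. The exception was VARS2, the mitochondrial valine enzyme. No enzyme had replicates on both sides of 1 TPM, which 2.84% of protein-coding genes did. At 100 TPM or more were 12 of the 20 cytosolic enzymes (60.0%) and 1 of the 16 mitochondrial enzymes (6.25%), against 7.86% of protein-coding genes. Among protein-coding genes ranked by mean, 16 of the enzymes lay above the 90th percentile.

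The median cytosolic enzyme stood at 162, 170 and 128 TPM in replicates 1, 2 and 3. The median mitochondrial enzyme stood at 25.2, 25.4 and 19.99 TPM. The medians of the means were 155 and 23.5 TPM, and the log2 ratio of the cytosolic to the mitochondrial median was 2.70 ± 0.034 (SD, n = 3), far above the spread between replicates. With 3 replicates an exact two-sided sign-flip permutation test cannot give a p below 0.25, which is the value for every log2 ratio below whose sign was the same in all 3. Dividing reads by the canonical transcript in place of the longest one lowered this log2 ratio to 2.21, and leaving out SARS2 and VARS2, whose exons are shared with other genes, lowered it to 2.43.

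**Figure D1:**
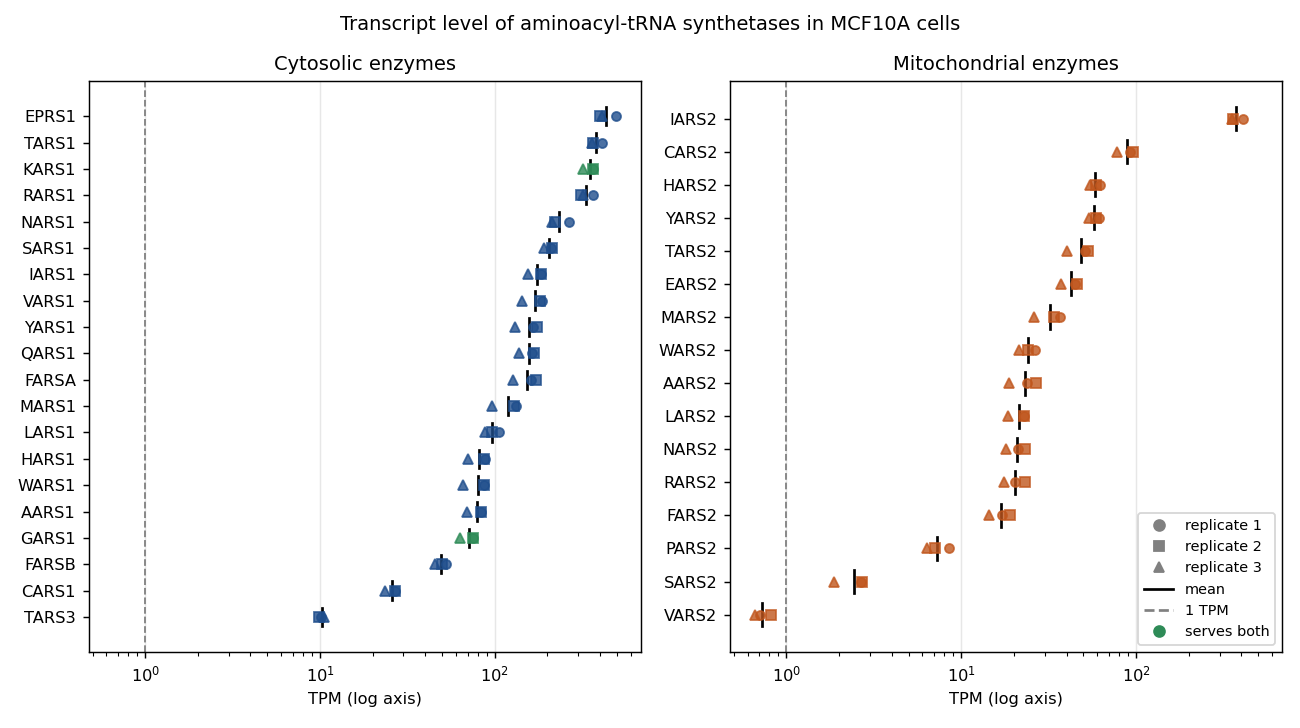
Level of each of the 36 enzymes in TPM on a log axis, ordered by mean within the cytosolic and the mitochondrial group. Symbols are the 3 replicates, black marks the means, the dashed line 1 TPM and green the genes that serve both compartments. The cytosolic enzymes run from 10.2 to 434 TPM and the mitochondrial enzymes from 0.729 to 374 TPM, and the points of a gene lie close together beside the distance between the groups.

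EPRS1, the bifunctional enzyme for glutamate and proline, had the highest deposited mean of all 36. It stood at 494, 399 and 411 TPM (434 ± 51.6, SD, n = 3), at the 98.7th percentile of protein-coding genes. The threonine enzyme TARS1 followed at 412, 364 and 362 TPM (379 ± 28.3). In replicate 1 EPRS1 exceeded every value of TARS1, while the ranges of the genes overlapped.

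KARS1, which charges lysine tRNA in both compartments through alternative splicing, stood at 364, 362 and 319 TPM (348 ± 25.3). The arginine enzyme RARS1 was at 363, 312 and 319 TPM (331 ± 27.4), so that the ranges of these 2 neighbours overlapped. A step down came with NARS1, the asparagine enzyme, at 266, 222 and 214 TPM (234 ± 28.3), all below the lowest value of RARS1.

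Below NARS1 and above 100 TPM lay SARS1 at 204 TPM, IARS1, VARS1, YARS1, QARS1 and FARSA between 153 and 174 TPM, and MARS1 at 119 TPM. LARS1, HARS1 and WARS1 had means of 96.2, 81.5 and 79.7 TPM. Of the 19 neighbouring steps in the cytosolic order, 12 had overlapping ranges, and in 13 the order was the same in all 3 replicates.

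At the low end, AARS1, which charges alanine, stood at 83.6, 83.7 and 69.2 TPM (78.8 ± 8.35). GARS1, the glycine enzyme of both compartments, stood at 74.7, 74.6 and 63.5 TPM (70.9 ± 6.43). FARSB, the beta subunit of the phenylalanine enzyme, was at 52.7, 49.95 and 45.2 TPM (49.3 ± 3.80). All 3 lay below the cytosolic median.

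CARS1, the cytosolic cysteine enzyme, was lower still. It stood at 27.0, 26.8 and 23.6 TPM (25.8 ± 1.90), and TARS3 was the lowest cytosolic gene at 10.1, 9.92 and 10.6 TPM (10.2 ± 0.329). TARS3 is a paralog of TARS1 with a threonyl-tRNA synthetase domain, and TARS1 exceeded it by 5.21 ± 0.12 on the log2 scale, a 37.1-fold difference.

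The multisynthetase complex holds 7 of these gene products, EPRS1, IARS1, LARS1, MARS1, QARS1, RARS1 and KARS1. Their median was 174 TPM, and 6 of 7 were at 100 TPM or more. The 13 other cytosolic enzymes had a median of 81.5 TPM, with 6 of 13 at that level. The log2 ratio of the medians was 1.09 ± 0.04 (SD, n = 3), but it depended on a few genes. It was 0.50 with GARS1, outside the complex, and KARS1, within it, both left out, and 0.57 without TARS3 alone.

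The order of the classes depended on the length in the cytosol. The median was 156 TPM in 9 cytosolic enzymes of class I and 117 TPM in 10 of class II, leaving out EPRS1, which joins a domain of each class. By canonical transcript length the order turned, with 138 TPM in class I and 177 TPM in class II. In mitochondria, 9 enzymes of class I had a median of 32.3 TPM and 7 of class II had 20.7 TPM, and class I was also the higher by canonical length, at 36.7 against 31.8 TPM.

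The phenylalanine enzyme of the cytosol is a tetramer of alpha subunits, encoded by FARSA, and beta subunits, encoded by FARSB, in equal number. FARSA stood at 161, 172 and 126 TPM (153 ± 24.1) and was above FARSB in every replicate. The log2 ratio was 1.61, 1.79 and 1.48, a mean of 1.63 ± 0.15 and 3.09-fold. By canonical length the log2 ratio was 1.81, and FARSA was again higher in all 3 replicates. By coding length, an alternative chosen after the data were seen, the log2 ratio was 0.12, and FARSA was higher in 2 of 3 replicates. Coding length divided all reads of a gene, also those outside its coding bases, by the coding bases alone. FARSB has 1767 coding bases in a canonical transcript of 6761 bases, and FARSA has 1524 in 1811. This length therefore raised FARSB more than FARSA, and the ratio by coding length cannot show that the subunits had equal levels.

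Among the mitochondrial enzymes, IARS2, which charges isoleucine, stood apart. It was at 408, 359 and 356 TPM (374 ± 29.2) and had the third highest deposited mean of the 36 genes, although its range overlapped that of KARS1 and it was above KARS1 in 2 of 3 replicates. CARS2, the cysteine enzyme, was next at 91.9, 96.5 and 78.2 TPM (88.9 ± 9.51). Every replicate of IARS2 exceeded every replicate of CARS2.

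HARS2 for histidine stood at 61.8, 58.9 and 54.3 TPM (58.4 ± 3.78). YARS2 for tyrosine stood at 61.1, 58.7 and 53.6 TPM (57.8 ± 3.81), below HARS2 in every replicate but by less than the SD of either gene. TARS2 for threonine stood at 51.3, 53.3 and 40.3 TPM (48.3 ± 7.03). EARS2, MARS2, WARS2, AARS2, LARS2 and NARS2 filled the range from 42.5 to 20.7 TPM.

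At the low end were RARS2 for arginine, at 20.2, 23.0 and 17.5 TPM (20.3 ± 2.74), and FARS2 for phenylalanine, at 17.2, 19.1 and 14.3 TPM (16.9 ± 2.38). FARS2 is a single-chain enzyme, unlike its cytosolic counterpart. PARS2, the proline enzyme, stood at 8.46, 7.06 and 6.35 TPM (7.29 ± 1.08), from 105, 90 and 67 reads. Of the 15 neighbouring steps in the mitochondrial order, 8 had overlapping ranges, and 13 kept 1 order in all 3 replicates.

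The lowest 2 members share their exons with other annotated genes. SARS2, the mitochondrial serine enzyme, was at 2.68, 2.71 and 1.87 TPM (2.42 ± 0.478), from 27, 28 and 16 reads. Of its canonical transcript, 77.5% lies in exons of a readthrough gene on the same strand, ENSG00000269547, which had 0 reads. VARS2 was at 0.704, 0.822 and 0.662 TPM (0.729 ± 0.083), from 15, 18 and 12 reads. Its canonical transcript is shared in full (100%) with a long non-coding RNA gene, ENSG00000288473, which had 1, 0 and 0 reads. How reads in shared exons were handled is not given in the sources used here, so these 2 levels cannot be read as low expression. HARS2 and EARS2 shared 6.16% and 3.91% of their transcripts on the same strand, and the other 32 enzymes shared none on that strand. Exons of genes on the opposite strand overlapped the canonical transcript of 13 enzymes, by up to 18.3% in YARS2. The strand setting is not given in the sources used here, so whether this overlap affected the counts was not tested. Of 14 annotated pseudogene copies named after the enzymes, 13 had no read in any replicate, and RARS1P1 had 1 read in all.

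For 16 combinations of a cytosolic and a mitochondrial gene that charge the same amino acid, the cytosolic gene was higher in all 3 replicates in 14. EPRS1 entered this count both for glutamate, against EARS2, and for proline, against PARS2, and FARSA stood for its enzyme. The median log2 ratio over the pairs was 2.58, or 5.97-fold, and 2.03, or 4.08-fold, without SARS2 and VARS2. The largest SD of any pair over the replicates was 0.24.

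The largest ratio was that of VARS1, at 186, 182 and 142 TPM (170 ± 24.2), to VARS2, with a log2 ratio of 7.86 ± 0.16. SARS1 to SARS2 followed at 6.42 ± 0.23, and both rest on the shared exons described above. Among pairs that share no such exons, EPRS1 to PARS2 was the widest at 5.90 ± 0.10, or 59.8-fold. RARS1 exceeded RARS2 by 4.04 ± 0.24 and NARS1 exceeded NARS2 by 3.497 ± 0.21. These 2 ratios fell to 2.48 and 2.40 by canonical transcript length.

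The remaining cytosolic-higher pairs ran from EPRS1 over EARS2, at 3.35 ± 0.20, down to HARS1 over HARS2, at 0.48 ± 0.09. The histidine genes lie head to head on chromosome 5, with annotated ends that overlap by 108 bases. Their log2 ratio was wider by other lengths, at 1.97 by canonical and 1.62 by coding length.

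In 2 pairs the mitochondrial gene was higher in all 3 replicates. IARS1, the cytosolic isoleucine enzyme, stood at 183, 183 and 156 TPM (174 ± 15.8), below every replicate of IARS2, with a log2 ratio of -1.11 ± 0.12 and 2.15-fold more of IARS2. By canonical transcript length IARS2 remained above IARS1 in 3 of 3 replicates but by only 1.11-fold, and by coding length it was higher in 2 of 3. CARS1 was below CARS2 by a log2 ratio of -1.78 ± 0.06, or 3.44-fold, and here the ratio held at -1.66 by canonical and -1.64 by coding length. Cysteine was thus the amino acid for which the mitochondrial gene was higher in all 3 replicates under each length.

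**Figure D2:**
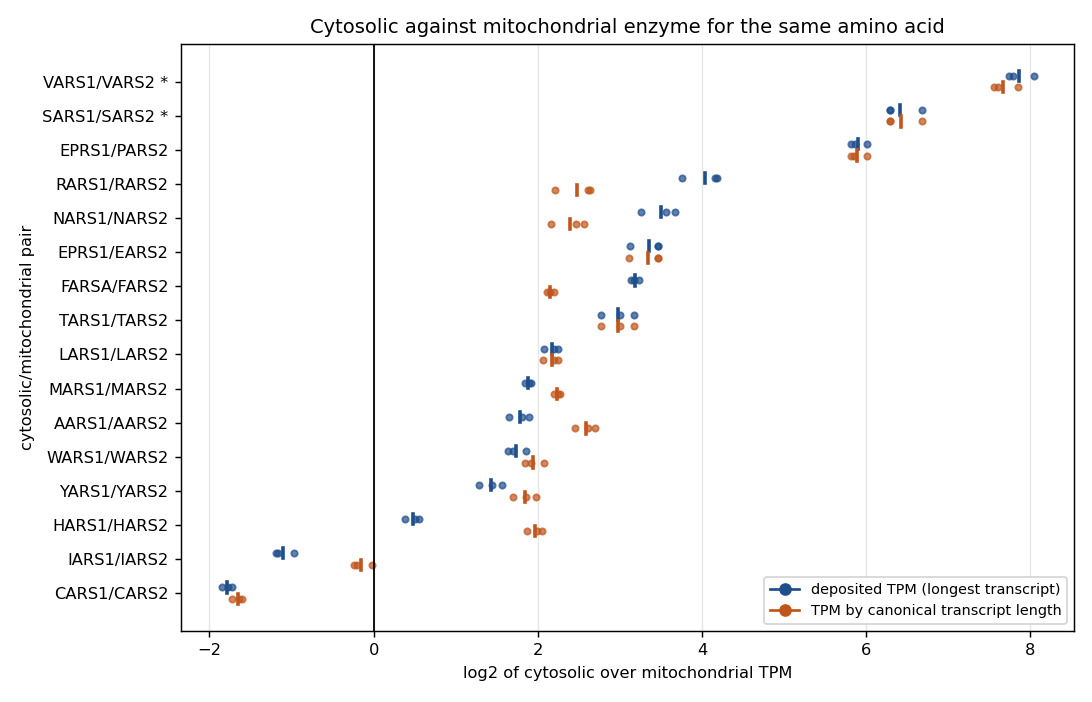
Log2 ratio of the cytosolic to the mitochondrial gene for 16 pairs, as deposited in blue and by canonical transcript length in orange, with points for the 3 replicates, bars for their means and asterisks for pairs with shared exons. Values above 0 mean more of the cytosolic gene. As deposited, the valine pair is highest at 7.86, and the isoleucine and cysteine pairs lie below 0 at -1.11 and -1.78.

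The gene length used by the authors set part of these levels. Deposited values divide by the longest annotated transcript, which in 11 enzymes is over 1.5 times as long as the canonical one and in 17 is equal to it. The 11 were IARS1, LARS1, HARS1, AARS1, GARS1 and CARS1 in the cytosol and CARS2, LARS2, NARS2, RARS2 and FARS2 in mitochondria. GARS1 had the largest ratio, 3.46, with 8433 against 2437 bases.

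By canonical length GARS1 rose from 70.9 to 200.4 ± 15.7 TPM and moved from rank 19 to rank 7 of 36. HARS1 moved from 81.5 to 188 ± 19.6 TPM and from rank 16 to rank 9. KARS1 exceeded GARS1 by 2.30 ± 0.028 on the log2 scale as deposited, or 4.92-fold, and by 0.78, or 1.72-fold, by canonical length. EPRS1 stayed first at 353 TPM, and IARS2 was at rank 4 with 304 TPM, below KARS1 at 344 TPM. By coding length KARS1, TARS1 and EPRS1 lay within their spread of each other, at 199 ± 1.92, 198 ± 11.6 and 197 ± 19.0 TPM. By canonical length 16 cytosolic and 2 mitochondrial enzymes, IARS2 and CARS2, were at 100 TPM or more. By coding length 11 cytosolic and 1 mitochondrial enzyme were at that level.

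**Figure D3:**
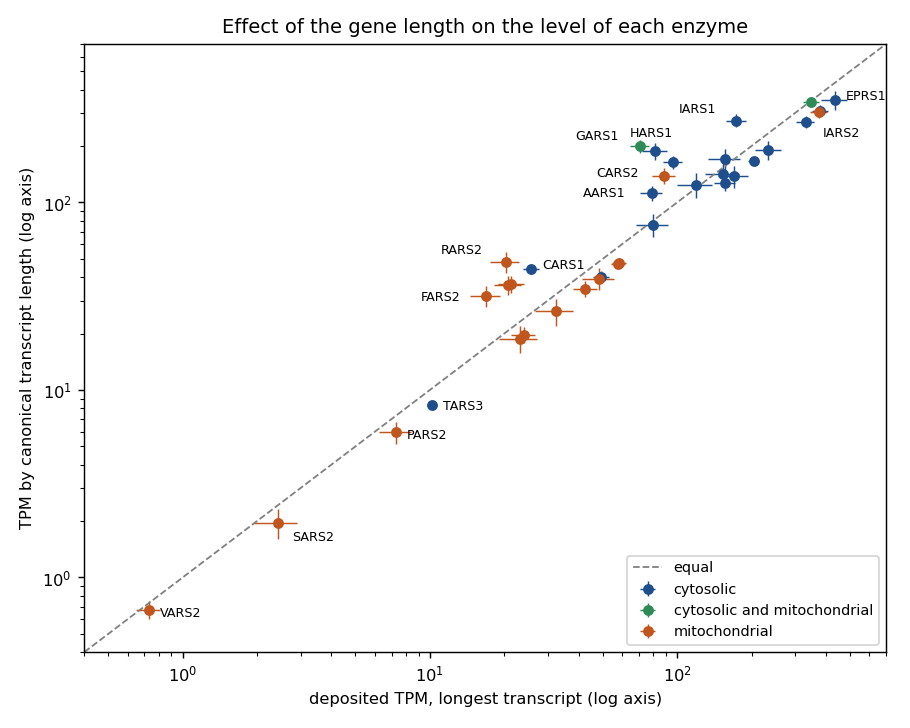
Mean level of each enzyme as deposited, by the longest transcript, against its level by canonical transcript length, both in TPM on log axes, with cytosolic enzymes in blue, mitochondrial ones in orange and those of both compartments in green. Bars are the SD over 3 replicates and the dashed line marks equal values. Enzymes such as GARS1, HARS1 and RARS2 lie above the line, and most others lie slightly below it.

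The cytosolic enzymes whose promoters held the composite element letters were not more abundant as deposited. The 7 had a median of 119 TPM, from 25.8 to 379, and the 9 without them had a median of 156 TPM, from 49.3 to 434. By canonical length the medians were 191 and 166 TPM, so the order depended on the length. No amino acid shortage was applied to these cells, and the response of the enzymes to it was not measured.

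All enzymes together took 0.452%, 0.425% and 0.380% of TPM in replicates 1, 2 and 3, and 0.588%, 0.563% and 0.573% of reads. The cytosolic genes held 80.0% ± 0.138 of the summed TPM. Replicate 3 was lower than replicate 1 in 35 of 36 enzymes, with a median log2 ratio of -0.26, and TARS3 alone was higher. The same shift was seen across 8364 protein-coding genes with at least 10 TPM, whose median was -0.25 and of which 94.5% were lower. Scaling protein-coding genes to a common total brought the enzymes' median to -0.062. The median SD of log2 TPM was 0.16 in the enzymes and 0.16 in those 8364 genes.

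Of the genes whose products work beside the synthetases, 20 of 23 were at or above 1 TPM, against 24.9% of all genes and 56.7% of protein-coding genes. Of the scaffold genes of the multisynthetase complex, AIMP2 stood at 176, 153 and 146 TPM (158 ± 15.5), beside a median of 174 TPM for the complex enzymes. By canonical length the gap was wider, with 129 TPM for AIMP2 and a median of 269 TPM. AIMP1 was lower at 53.8, 49.2 and 42.3 TPM (48.4 ± 5.79). EEF1E1 was the lowest scaffold gene at 17.5, 16.3 and 17.7 TPM (17.2 ± 0.776), with 37.5% of its transcript shared with another gene.

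Mitochondria lack a separate enzyme for glutamine tRNA and amidate glutamate on that tRNA instead. The subunits of the amidotransferase ran from GATB at 16.0, 14.6 and 13.3 TPM to GATC at 30.5, 29.5 and 29.7 TPM. By canonical length this order turned, with 33.0 TPM for GATB and 24.4 TPM for GATC. EARS2, which supplies the glutamate on this tRNA, was at 42.5 ± 4.70 TPM. MTFMT, which formylates the initiator methionine after MARS2 has charged it, stood at 29.9 ± 4.43 TPM against 32.3 ± 5.66 TPM for MARS2. MARS2 was the higher of the pair in every replicate, by less than the SD of either gene.

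The genes that clear mischarged tRNA ran from DTD2 at 23.6, 22.7 and 22.7 TPM down to AARSD1 at 3.05, 5.22 and 6.48 TPM. Of the AARSD1 transcript 96.0% is shared with other genes, so this level, from 21, 37 and 38 reads, cannot be read as low expression. Of the genes that convert serine to selenocysteine on its tRNA, PSTK stood at 5.58, 5.90 and 2.52 TPM and SEPSECS at 4.57, 3.23 and 3.60 TPM. PSTK varied more than the enzymes did, with 104, 113 and 40 reads.

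EEF1A1, which carries charged tRNA to the ribosome, and the elongation factors EEF1B2 and EEF2 exceeded every enzyme, with means of 2938, 1142 and 2490.5 TPM. EEF1A1 was the highest cytosolic factor at 3202, 2685 and 2926 TPM, and TUFM was the highest mitochondrial factor at 278, 287 and 228 TPM. The lowest were EEF1G, with 0, 1 and 0 reads and 99.5% of its transcript shared, and TSFM, at 0.976, 0.804 and 0.794 TPM with 94.7% shared. EEF1A2, known from muscle and neurons, was at 0.621 ± 0.108 TPM with no exons shared on the same strand. These 3 were the genes below 1 TPM as deposited. By canonical length EEF1A2 was at 1.14 TPM. Because of their shared exons, the levels of EEF1G and TSFM cannot be read as low expression.

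**Figure D4:**
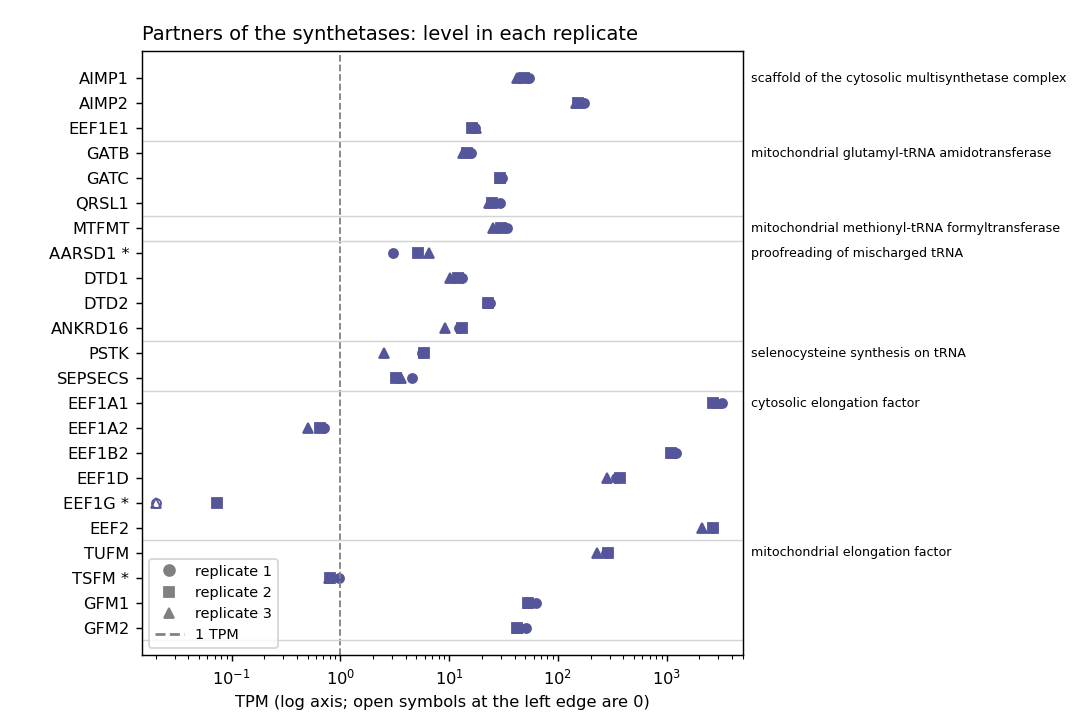
Level in TPM on a log axis of 23 genes that act beside the synthetases, grouped by role, with symbols for the 3 replicates, open symbols at the left edge for values of 0, a dashed line at 1 TPM and asterisks for genes with at least 50% shared exons. Cytosolic elongation factors reach 2938 TPM on average, scaffold genes lie between 17.2 and 158 TPM, and EEF1G, TSFM and EEF1A2 lie below 1 TPM.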

How the data were processed

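The samples were 3 replicates of empty-vector MCF10A cells without treatment. Per the methods, ribosomal RNA was depleted before library preparation, and quality control, mapping to hg38 and counting were run in Seq2science. The submitters' processing notes also name STAR, fastp and MultiQC. The annotation release and the strand setting are not given in the sources used here. The authors deposited TPM values for 62754 genes, and these were used as they are.

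Members, lists and alternatives were chosen with earlier results of these data known. Types, positions and lengths of genes came from GENCODE release 44, which held 62700 of the genes by identifier. TPM times length (longest transcript less 1 base per exon), divided by its smallest value above 0, gave whole reads for 100% of genes within 0.01, with 15273329, 15446347 and 11166546 reads. Counting error is thus small for most enzymes, which had a median of 1596 reads and a lowest value of 12. All samples are of 1 condition, so no test across genes was run. Values per replicate are given for the 5 highest and 5 lowest enzymes of each compartment, subunits, genes serving both compartments, exceptional pairs and genes with at least 50% shared exons. The read recovery returned 100% of reads for 62700 genes when tested on simulated data. The simulation used the same lengths in both directions, so it checked the arithmetic only and cannot show which length the authors used. Python 3.11.15, pandas 2.3.3 and scipy 1.17.1 were used. Protein lengths and identities were planned but not run.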

Additional observations from a re-analysis of the deposited data

How the results depend on the processing

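No summary value or mean pair ratio changed direction, although the order of the cytosolic class medians, of the medians with and without the promoter letters and of GATB and GATC turned with canonical length, and EPRS1 was not the highest by coding length. EEF1A2, below 1 TPM as deposited, was at 1.14 TPM by canonical length. The count at or above 1 TPM was 36 with a cutoff of 0.5 TPM. The cytosolic gene was higher in 14 of 16 pairs, and in 12 of 14 without shared exons. It was higher in 13 pairs without members below 1 TPM. The counts were lower only because the pairs left out were ones with the cytosolic gene higher. Scaling protein-coding genes to 1000000 gave a cytosolic median of 177 TPM, a mitochondrial median of 27.0 TPM and a log2 ratio of replicate 3 to 1 of -0.062. Canonical transcript length gave a mitochondrial median of 35.5 TPM, a log2 ratio of medians of 2.21, a median pair log2 ratio of 2.32, a cytosolic share of 80.4%, a complex log2 ratio of 0.89 and a FARSA to FARSB log2 ratio of 1.81. Coding length, added after seeing the data, gave 111 and 29.4 TPM for the medians, 1.90 for their log2 ratio and 1.995 for the pairs. It gave 78.3% for the share, 0.78 for the complex and 0.12 for FARSA to FARSB. It divided all reads of a gene by its coding bases alone. It was scaled over genes with coding bases only, so these medians are not on the scale of the other lengths. Without shared exons the mitochondrial median was 28.1 TPM, the ratio 2.43 and the pairs 2.03. Without members below 1 TPM the ratio was 2.62 and the pairs 2.17. On log2(TPM + 1) the ratio was 2.65, and FARSB in place of FARSA gave 2.03 for the pairs. Without GARS1 and KARS1 the share was 77.8% and the complex ratio 0.50, and without TARS3 the latter was 0.57.

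Leaving out 1 replicate at a time gave a cytosolic median of 146 to 166 TPM, a mitochondrial median of 22.6 to 25.3 TPM, a log2 ratio of 2.68 to 2.72 and a median SD of log2 of 0.0495 to 0.195, the lowest without replicate 3. No paired analysis was possible because the samples hold no second group to pair with. Protein features were not run. The depth limits SARS2 and VARS2, with 12 to 28 reads each. Intervals for counting error were not given, and reads are not independent molecules.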
